A study of Mus musculus with 4 samples.

Results

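The cyclins, cyclin-dependent kinases (CDKs), CDK inhibitors, E2F factors and pocket proteins that govern entry into and exit from the cell cycle were examined in RNA of the whole lung, taken from E16.5 mouse embryos. The genes were a written list of 44 symbols from this machinery, E2f4 and E2f5 left out, and all 44 were found among the 22556 genes of the expression table. The list was not chosen from measured values by its rule, but it was drawn up with earlier results of these data known. There were 2 Control libraries, from Shh-Cre; Stk11F/+ embryos with 1 floxed and 1 intact allele of Stk11, and 2 Shh-Stk11 libraries, from Shh-Cre; Stk11F/F embryos with both alleles floxed. Stk11 encodes a serine/threonine kinase known as a tumor suppressor. All 4 libraries thus carried the Shh-Cre driver, which is active in the endoderm that gives rise to the lung epithelium and not in mesenchyme, vessels or blood. The strain label was C57BL/6, whereas the study described mixed backgrounds, and neither sex, litter nor the number of embryos behind a library was labelled. Values are FPKM, which divide the reads of a gene by the length of its transcript and by library depth, so that levels can be compared between genes.

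In the textbook scheme, D-type cyclins bind CDK4 and CDK6 and phosphorylate the retinoblastoma protein RB and its relatives, the pocket proteins, which then release the E2F factors that they hold. Free E2F activators, paired with a DP partner, switch on cyclin E, cyclin A and the genes of DNA replication, and CDK2 and CDK1 carry the cell on to mitosis. The INK4 inhibitors act on CDK4 and CDK6, the CIP/KIP inhibitors on cyclin-CDK complexes more broadly, and p53 adds a brake through the CIP/KIP inhibitor p21. In the embryonic airway, ciliated cells leave the cell cycle as they differentiate, and multiciliated cells reuse some cell cycle proteins to build their centrioles.

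The letters by which E2F factors are known were looked for in the RefSeq promoters (build GRCm38.p6), in the 250 bases before each start, on both strands. The promoter table held 45 promoters of 36 of these genes, and no entry for Ccna2, Ccnd1, Ccnd2, Ccne2, Cdc25c, Myc, Rb1 and Wee1. An E2F spelling (TTTCGCGC, TTTGGCGC, TTTCCCGC or TTTGCCGC) was present in 9 of the 45 promoters (20%) and in 1.86% of all 32851 promoters. The number of these matches that overlapped another motif searched was 0. The matches, in 8 genes, are shown in capitals with up to 16 bases on each side, because E2F is the factor on which the scheme turns.
Rbl1, chr2:157204535-157204568, minus strand: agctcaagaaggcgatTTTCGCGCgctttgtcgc
Cdkn2a, chr4:89294695-89294734, minus strand: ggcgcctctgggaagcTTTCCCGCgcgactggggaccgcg
Tfdp1, chr8:13338692-13338731, plus strand: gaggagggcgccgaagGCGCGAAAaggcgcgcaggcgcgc
Cdc25a, chr9:109875496-109875535, plus strand: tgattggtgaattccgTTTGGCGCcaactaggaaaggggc
Cdk1, chr10:69353020-69353059, minus strand: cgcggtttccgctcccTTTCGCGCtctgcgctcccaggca
E2f7, chr10:110745225-110745264, plus strand: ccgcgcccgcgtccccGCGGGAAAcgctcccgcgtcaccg
Cdk2, chr10:128705168-128705207, minus strand: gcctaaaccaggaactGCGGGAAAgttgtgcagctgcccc
E2f3, chr13:29986064-29986090, minus strand: atggtttgaaaagccgGCGGGAAAtct
The Tfdp1 site lay 43 and 96 bases before the 2 starts of that gene, and the others lay between 11 bases (E2f3) and 198 bases (E2f7) before theirs. The cell cycle element TTTGAA was in 20% of the members' promoters and 16% of all promoters, the CCAAT box in 48.9% and 33.8%, TATAAA in 8.89% and 12.4%, and the E-box CACGTG in 8.89% and 6.02%. A match describes the letters only.

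The deleted gene and the cell types of the libraries were checked before the genes of the list. Stk11 was at 43.99 and 45.5 FPKM in the Control libraries and at 29.5 and 26.0 FPKM in the Shh-Stk11 libraries, with no overlap. Its log2 fold change was -0.69 (SE 0.125), and the limma adjusted p of 0.0499 lay at the edge of the threshold and beyond it in 13 of 16 alternative fits. The library Shh-Stk11 2 was male and the other 3 were female, by Xist (0.239 FPKM in the former and 65.1 to 169 FPKM in the latter) and by the Y-linked genes Ddx3y, Eif2s3y, Kdm5d and Uty (7.91 to 37.97 FPKM in the former, 0.0405 FPKM or less in the latter). None of the 44 genes lay on X or Y (0 of 44). The median log2 fold change was -0.29 over 10 mesenchymal, -0.38 over 8 endothelial, -0.56 over 8 red blood, -0.86 over 5 heart muscle, 0.06 over 6 immune and 0.20 over 9 lung epithelial markers, and of all these markers 1 passed the threshold (Hba-x, lower). That call was lost in 5 of 16 alternatives. In whole-lung RNA, fewer cells of a type and less RNA per cell cannot be told apart, and any difference within the epithelium was diluted by the other cells.

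Between the genotypes, the machinery gave calls about as often as genes at large did. Of the 44 genes, 43 had a mean of at least 0.5 FPKM and were tested. Of these, 1 passed the threshold of 0.05 on the adjusted p in limma, which is 2.33% of the genes of the list, beside 2.27% of all 13770 genes tested. It was Ccna1, which was lower in Shh-Stk11 lungs; 0.98% of all genes tested were called higher and 1.29% lower. An unadjusted p under 0.05 was reached by 4 genes (9.3%, beside 15.2% of all genes), Ccnd2 and Rb1 with the higher mean in Shh-Stk11 lungs (4.65%, beside 8.04% of all genes) and Ccna1 and Mycl1 with the lower (4.65%, beside 7.18%). The libraries of the 2 genotypes did not overlap for 14 genes (32.6%, beside 46.8% of all genes), of which 7 were higher (beside 19.2% of all genes) and 7 lower (beside 27.6%). The median log2 fold change was -0.03 over the 43 genes and -0.05 over all genes tested. Levels on the list ran from 0.269 to 0.364 FPKM for Cdkn2a to 247 to 322 FPKM for Cdk4, as the plot of the level of each gene shows.

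**Figure D1:**
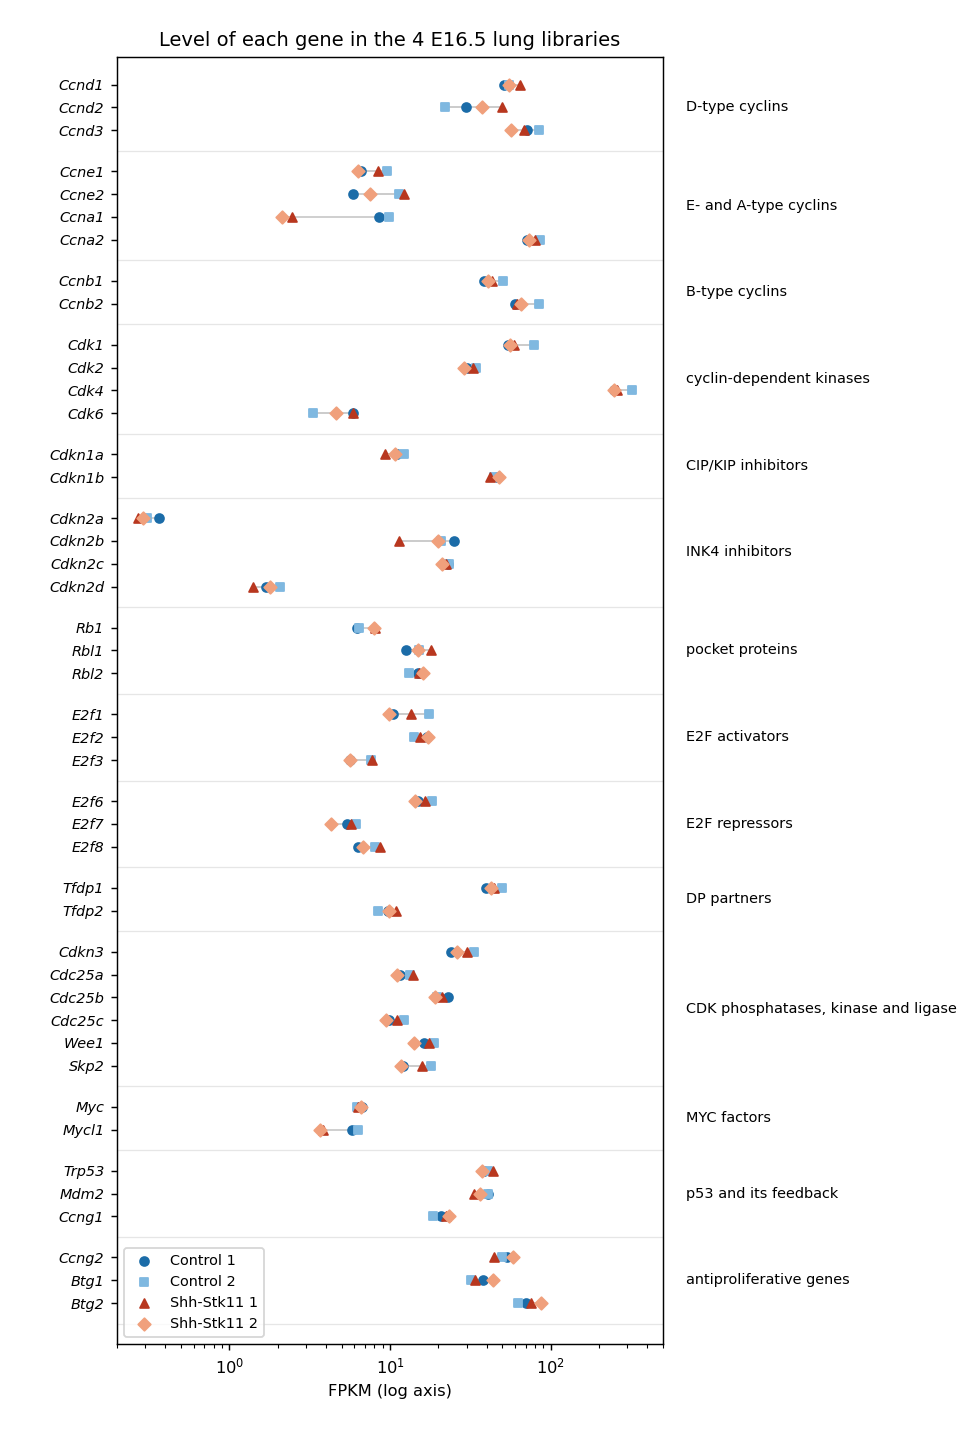
FPKM (log axis) of the 44 genes in each of the 4 libraries, grouped by role; circles and squares are the Control libraries, triangles and diamonds the Shh-Stk11 libraries, and grey lines span the 4 values of a gene. For most genes the 4 symbols lie close together, whereas Ccna1 has 2 Shh-Stk11 values (2.45 and 2.12) well apart from its 2 Control values (8.53 and 9.85).

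**Figure D2:**
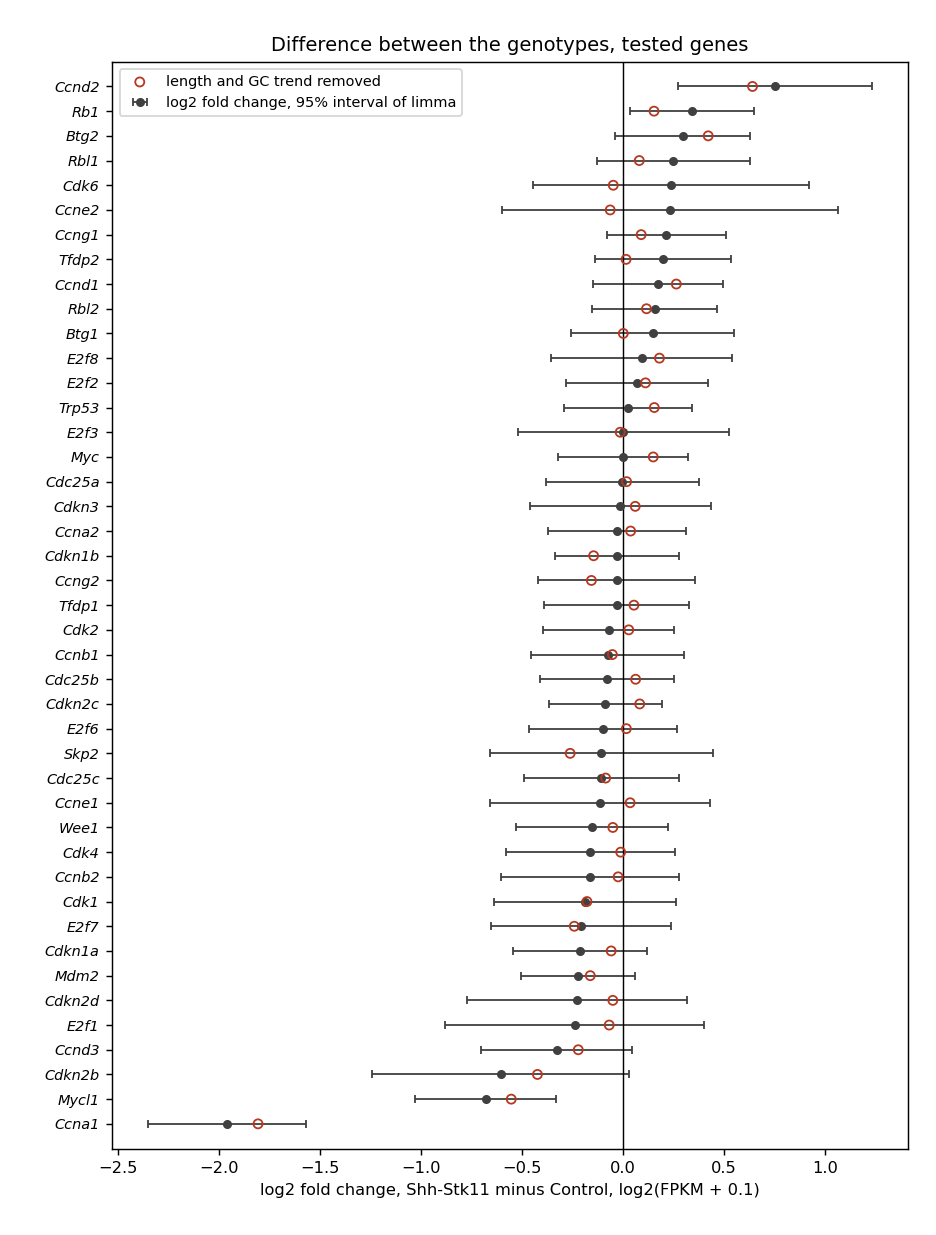
Log2 fold change (Shh-Stk11 minus Control, on log2(FPKM + 0.1)) of the 43 tested genes with its 95% interval from limma (filled circles and bars), and the value after a trend with transcript length and GC content was removed from each library (open circles). The interval of Ccna1 runs from -2.35 to -1.57 and those of Ccnd2, Rb1 and Mycl1 also stay on 1 side of 0, without passing the threshold after adjustment.

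The D-type cyclins, which couple growth signals to CDK4 and CDK6, did not share a direction, and each of the 3 kept its own in all 16 alternatives. With a library left out, the log2 fold change ran from 0.54 to 0.97 for Ccnd2, from 0.060 to 0.29 for Ccnd1 and from -0.46 to -0.19 for Ccnd3. The values of Ccnd1 and Ccnd3 nearest to 0 came when Shh-Stk11 1 and Shh-Stk11 2, respectively, were dropped. Ccnd2, which the study also named from these samples, so that its direction here is not independent evidence, was at 29.7 and 22.0 FPKM in Control and at 49.6 and 37.4 FPKM in Shh-Stk11 lungs. The Shh-Stk11 libraries stood above both Control libraries, with a wide spread inside each genotype (25.8 ± 5.44 against 43.5 ± 8.58 FPKM, SD, n = 2). The log2 fold change was 0.75 (95% interval 0.27 to 1.23), with an unadjusted p = 0.00813 and an adjusted p = 0.127 in limma. Ccnd1 was at 51.5 and 54.7 FPKM in Control and at 64.7 and 55.3 FPKM in Shh-Stk11 lungs, where the nearest values of the genotypes almost touched (log2 fold change 0.17, limma adjusted p = 0.598). Ccnd3 was at 71.2 and 84.6 FPKM in Control and at 67.8 and 56.2 FPKM in Shh-Stk11 lungs. It was the most abundant D-type cyclin in all 4 libraries and lay lower in Shh-Stk11 lungs without overlap (log2 fold change -0.33, limma adjusted p = 0.392).

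The D-type cyclins were also set against each other within a library, a measure on which scaling between libraries has no bearing. Ccnd2 supplied 19.5% and 13.6% of the summed D-type cyclin FPKM in Control and 27.2% and 25.1% in Shh-Stk11 lungs. Ccnd3 supplied 46.7% and 52.4% in Control and 37.2% and 37.7% in Shh-Stk11 lungs, and Ccnd1 stayed between 33.8% and 37.1% in all 4. The share of Ccnd2 was 9.60 percentage points higher in Shh-Stk11 lungs (exact permutation p = 0.3333, two-sided, the smallest that 2 against 2 libraries can give), and 7.25 points after the trend with length and GC content was removed. The sum of the 3 D-type cyclins was 152 and 161 FPKM in Control and 182 and 149 FPKM in Shh-Stk11 lungs, which overlapped.

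**Figure D3:**
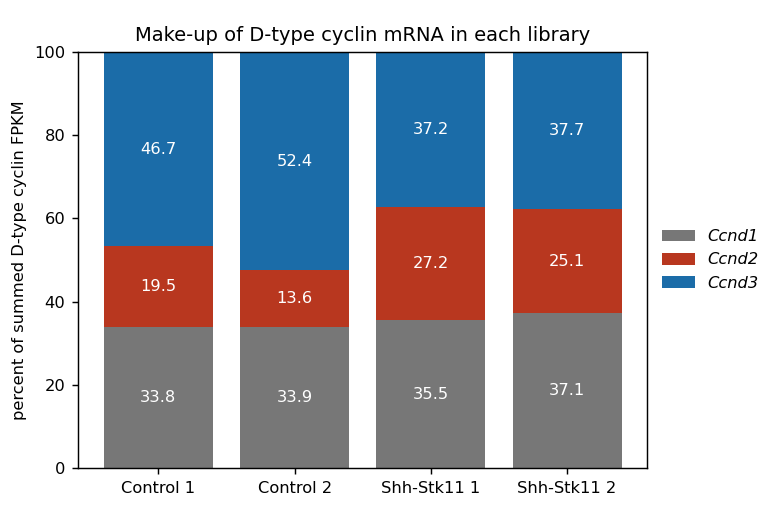
Percent of the summed D-type cyclin FPKM that Ccnd1, Ccnd2 and Ccnd3 supplied in each library, as stacked bars that reach 100. The red part, Ccnd2, covers 27.2 and 25.1 in the Shh-Stk11 libraries and 19.5 and 13.6 in the Control libraries, and the blue part, Ccnd3, is smaller in the former.

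The catalytic partners of these cyclins overlapped between the genotypes. Cdk4 was the most abundant gene of the list, at 248 and 322 FPKM in Control and at 258 and 247 FPKM in Shh-Stk11 lungs. Cdk6, its close relative, was at 5.91 and 3.30 FPKM in Control and at 5.91 and 4.63 FPKM in Shh-Stk11 lungs, far below Cdk4 on this per-length scale. The log2 fold changes were -0.16 (95% interval -0.58 to 0.26) for Cdk4 and 0.24 (-0.44 to 0.92) for Cdk6. Cdk2, the partner of cyclins E and A, had means of 32.3 and 30.7 FPKM, and Cdk1, the mitotic kinase, 66.4 and 57.3 FPKM, in Control and Shh-Stk11 lungs.

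Among the E- and A-type cyclins, Ccna1 stood apart. This cyclin A is best known from the male germ line, whereas Ccna2 is the form of dividing somatic cells. Ccna1 was at 8.53 and 9.85 FPKM in Control and at 2.45 and 2.12 FPKM in Shh-Stk11 lungs. Neither Shh-Stk11 library came near a Control library, and the male library had the lower of the 2 values. Ccna1 fell by 1.96 on the log2 scale (SE 0.162, limma adjusted p = 0.00441), and by 1.81 after the trend with length and GC content was removed (adjusted p = 0.0194). With 1 Control library left out, where the remaining one is assumed to vary like the Shh-Stk11 libraries and only 1 residual degree of freedom is left, the call was lost though the size was kept (adjusted p = 0.0580 without Control 1 and 0.0778 without Control 2, log2 fold change -2.06 and -1.86), as it was with the replicate number as a block (adjusted p = 0.0608). The promoter of Ccna1 in RefSeq (GRCm38.p6) held no E2F spelling, and its CCAAT box, here read on the opposite strand and set in capitals, lay 107 bases before the start.
Ccna1 promoter, chr3:55055056-55055305, minus strand: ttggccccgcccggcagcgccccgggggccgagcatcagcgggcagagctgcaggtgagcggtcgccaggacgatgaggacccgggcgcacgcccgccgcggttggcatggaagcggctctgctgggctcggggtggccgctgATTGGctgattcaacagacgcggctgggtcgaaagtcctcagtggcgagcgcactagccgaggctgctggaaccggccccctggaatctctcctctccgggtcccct

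Genes of ciliated cells differed between the same libraries. The summed FPKM of the ciliated markers was 83.9 to 91.1 in Control and 24.6 to 27.1 in Shh-Stk11 lungs, and of the 7 found in the table all had a log2 fold change below 0 (median -1.71) and 6 passed the threshold, each of which lost its call in 2 to 6 alternatives. Of 8 tested regulators of multiciliated cells that are related to the cell cycle, 7 had a log2 fold change below 0 without overlap and 4 passed. These 4 were Ccno, a cyclin needed for centriole amplification, which fell from 8.89 to 4.84 FPKM on average (limma adjusted p = 0.0335, call lost in 8 of 16 alternatives), Myb, from 7.68 to 2.94 (adjusted p = 0.0249, lost in 6), Ccdc67, a deuterosome gene, from 7.91 to 2.89 (adjusted p = 0.0160, lost in 6), and Foxj1, the master factor of motile cilia, which is also among the markers, from 15.8 to 4.74 (adjusted p = 0.00329, lost in 4). The part of ciliated cells in the lower level of Ccna1 was not tested. Ccna2, at 71.2 and 85.3 FPKM in Control and 79.5 and 73.3 FPKM in Shh-Stk11 lungs, overlapped between the genotypes and was far more abundant than Ccna1 in every library. The cyclins E, which start DNA replication with CDK2, were at means of 8.03 and 7.37 FPKM (Ccne1) and 8.59 and 9.85 FPKM (Ccne2), and the mitotic cyclins at 44.5 and 41.9 FPKM (Ccnb1) and 72.5 and 63.8 FPKM (Ccnb2), in Control and Shh-Stk11 lungs, all with overlap.

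**Figure D4:**
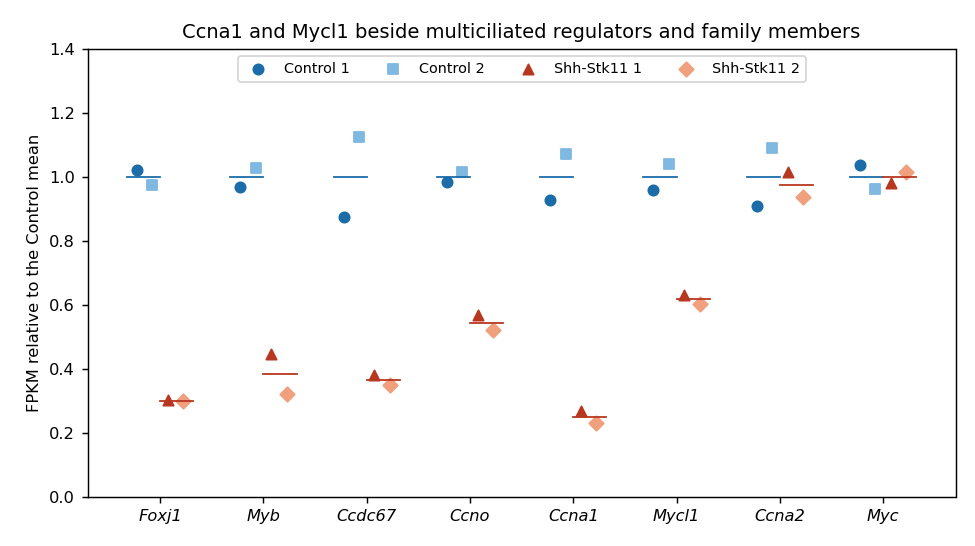
FPKM of each library divided by the Control mean of the same gene, for 4 regulators of multiciliated cells, for Ccna1 and Mycl1, and for their relatives Ccna2 and Myc; short lines are the means of each genotype. The Shh-Stk11 values of Ccna1 lie near those of Foxj1, those of Mycl1 lie between, and those of Ccna2 and Myc overlap the Control values.

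The CDK inhibitors gave no call. Cdkn1a, which encodes p21, was at 11.1 and 12.2 FPKM in Control and at 9.37 and 10.8 FPKM in Shh-Stk11 lungs (a log2 fold change of -0.21, limma adjusted p = 0.530). Its log2 fold change was -0.059 with the trend of length and GC content removed, and ran from -0.31 to -0.11 with a library left out. Cdkn1b, which encodes p27, was at 46.6 and 44.5 FPKM in Control and at 41.7 and 47.7 FPKM in Shh-Stk11 lungs. The former lay lower in both Shh-Stk11 libraries by a narrow margin, and the latter overlapped. Among the INK4 genes, Cdkn2b was at 25.2 and 20.9 FPKM in Control and at 11.3 and 20.0 FPKM in Shh-Stk11 lungs. Its lower mean came mainly from Shh-Stk11 1, without which the log2 fold change moved from -0.61 to -0.20 (limma adjusted p = 0.355 with all libraries). Cdkn2c was at means of 23.1 and 21.7 FPKM and Cdkn2d at 1.88 and 1.59 FPKM. Cdkn2a, the locus of p16 and p19ARF, was at 0.364 and 0.307 FPKM in Control and at 0.269 and 0.292 FPKM in Shh-Stk11 lungs, below the filter, which the low values put at 10, 7, 6 and 7 reads. Cdkn2a was therefore not tested. Both its Shh-Stk11 values lay below its Control values, on these few reads. The summed FPKM of these 6 inhibitors over that of the D-type cyclins was 0.708 and 0.640 in Control and 0.474 and 0.682 in Shh-Stk11 lungs (exact permutation p = 0.667, two-sided). The sum holds the genes of the list only. Cdkn1c, which encodes the CIP/KIP inhibitor p57 and is not on the list, was more abundant than all of them together, at 213 and 254 FPKM in Control and 248 and 267 FPKM in Shh-Stk11 lungs, with overlap. With Cdkn1c in the sum the ratio was 2.11 and 2.21 in Control and 1.84 and 2.48 in Shh-Stk11 lungs, which overlapped as well.

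All 3 pocket protein genes had the higher mean in Shh-Stk11 lungs, a direction that held in all 16 alternatives, and none passed the threshold. Rb1, which encodes RB itself, was at 6.24 and 6.37 FPKM in Control and at 8.06 and 7.97 FPKM in Shh-Stk11 lungs. The replicates were close (SD 0.0922 and 0.0627 FPKM, n = 2) and the genotypes did not overlap, yet the difference was small (log2 fold change 0.34, 95% interval 0.03 to 0.65, unadjusted p = 0.0348, limma adjusted p = 0.275). With the trend of length and GC content removed it was 0.15 (adjusted p = 0.583). Rbl2 was at means of 14.1 and 15.7 FPKM, without overlap, and Rbl1 at 13.8 and 16.4 FPKM, with overlap. With the same trend removed, Rbl1 went from a log2 fold change of 0.25 to 0.080 and Rbl2 from 0.16 to 0.12. The summed FPKM of all 3, without that correction, was 33.7 and 34.7 in Control and 41.3 and 39.0 in Shh-Stk11 lungs.

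The libraries of the genotypes overlapped for all 6 E2F factors, the activators and the repressors. Among the activators, E2f1 had means of 14.0 and 11.6 FPKM in Control and Shh-Stk11 lungs, E2f2 15.6 and 16.3 FPKM, and E2f3 6.65 and 6.66 FPKM. Among the repressors, E2f6 had means of 16.6 and 15.5 FPKM, E2f7 5.77 and 5.02 FPKM, and E2f8 7.22 and 7.70 FPKM. Of the DP partners, Tfdp1 had means of 44.7 and 43.4 FPKM and Tfdp2 9.10 and 10.4 FPKM, the latter without overlap. The CDK-activating phosphatases Cdc25a, Cdc25b and Cdc25c, the CDK-associated phosphatase Cdkn3, the inhibitory kinase Wee1 and Skp2, the subunit of the ligase that degrades p27, had log2 fold changes between -0.15 and -0.00 with overlap for all 6.

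Within the MYC family, Mycl1 (current symbol Mycl), which encodes L-MYC, came next to Ccna1 by unadjusted p. Mycl1 was at 5.84 and 6.33 FPKM in Control and at 3.85 and 3.66 FPKM in Shh-Stk11 lungs. The genotypes were well apart and the replicates close, and the log2 fold change was -0.68 (95% interval -1.03 to -0.33), with an unadjusted p = 0.00269 and a limma adjusted p = 0.0754 that ran from 0.0557 to 0.369 over 15 alternatives. Myc was at 6.69 and 6.22 FPKM in Control and at 6.34 and 6.57 FPKM in Shh-Stk11 lungs, a level like that of Mycl1 in Control and the same in both genotypes within the spread. The RefSeq promoter of Mycl (GRCm38.p6) held a TATAAA, in capitals, 8 bases before the start and no E-box CACGTG.
Mycl promoter, chr4:122995681-122995930, plus strand: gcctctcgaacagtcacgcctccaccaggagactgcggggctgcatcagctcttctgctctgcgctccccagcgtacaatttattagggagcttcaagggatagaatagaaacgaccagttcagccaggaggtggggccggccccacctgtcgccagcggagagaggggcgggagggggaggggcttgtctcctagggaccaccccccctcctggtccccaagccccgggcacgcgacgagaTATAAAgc

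Of 22 partners and targets of MYC, 1 passed the threshold: Mga, a MAX partner that counters MYC, rose from 4.36 and 4.56 FPKM to 9.15 and 7.68 FPKM (log2 fold change 0.90, limma adjusted p = 0.0398). That call was lost in 11 of 16 alternatives. The list had a median log2 fold change of 0.01. Of the immediate early genes, which growth signals induce, 1 of 18 tested passed, Egr1, which rose from 3.03 and 3.26 FPKM to 6.26 and 6.84 FPKM (log2 fold change 1.04, limma adjusted p = 0.0259), and this call was lost in 7 of 15 alternatives. The list as a whole had no common direction, with 9 genes above and 9 below 0, a median log2 fold change of 0.01, and 3 genes in each direction with an unadjusted p under 0.05, among the lower ones Ier3 (-0.84, limma adjusted p = 0.0774).

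The p53 arm showed opposite small differences that did not pass the test. Trp53 was at 38.3 and 40.9 FPKM in Control and at 43.5 and 37.3 FPKM in Shh-Stk11 lungs (a log2 fold change of 0.02, 95% interval -0.29 to 0.34). Mdm2, the p53 target that degrades p53, had means of 40.8 and 34.9 FPKM in Control and Shh-Stk11 lungs and Ccng1, another target, 19.6 and 22.7 FPKM, both without overlap (log2 fold changes -0.22 and 0.21). Of 26 tested p53 target genes none passed (0 in limma, beside 3 with an unadjusted p under 0.05), and their median log2 fold change was -0.06. The 2 with the smallest p were Dcxr, at 104 and 86.6 FPKM in Control and 139 and 199.6 FPKM in Shh-Stk11 lungs, and Phlda3, at 18.2 and 17.7 against 13.4 and 13.8 FPKM. The antiproliferative genes Btg2, with means of 66.3 and 81.5 FPKM without overlap, Btg1, with 34.9 and 38.9 FPKM, and the atypical cyclin Ccng2, with 51.7 and 51.1 FPKM, did not pass either.

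The genes downstream of the machinery gave no call between the genotypes. None of 36 replication genes driven by E2F passed (0 in limma, 1 with an unadjusted p under 0.05), with a median log2 fold change of -0.10, and the 2 with the smallest p were Pola1 (0.69, limma adjusted p = 0.277) and Usp1 (0.25, limma adjusted p = 0.561). With the trend of length and GC content removed, the median of the replication genes was -0.006. Of 30 mitotic genes none passed either (0 in limma, 3 with an unadjusted p under 0.05), with a median of 0.04. Mki67 and Cenpe were both named by the study from these samples. Mki67 was at 6.75 and 6.06 FPKM in Control and 14.5 and 9.27 FPKM in Shh-Stk11 lungs (limma adjusted p = 0.121), and Cenpe at 2.01 and 1.80 against 3.85 and 2.54 FPKM (limma adjusted p = 0.237). The study also gave relative mRNA of cell cycle genes, with qPCR primers for Mki67, Cenpe and Ccnd2. It further counted more airway epithelial cells with Ki67 protein and with a protein marker of mitosis, which whole-lung RNA does not measure. Among 29 other regulators of the G1/S step, which also gave no call (0 in limma, 2 with an unadjusted p under 0.05), the 2 with the smallest p were Mybl1 (log2 fold change 0.90) and Mnat1 (-0.33).

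The libraries of 1 genotype differed from each other in a way that the cell cycle genes shared. This pattern was chosen after the values were seen. Of the 43 tested genes, 26 (60.5%) were higher in Control 2 than in Control 1 and also higher in Shh-Stk11 1 than in Shh-Stk11 2, beside 25.7% of all genes tested, and 9 (20.9%, beside 25.9%) showed the reverse in both. The median log2 difference over the 43 genes was 0.19 between the Control libraries and 0.15 between the Shh-Stk11 libraries, and the 3 genes given next are examples with large differences. For E2f1, an activator, Control 1 had 10.5 FPKM and Control 2 had 17.6 FPKM, while Shh-Stk11 1 had 13.4 FPKM and Shh-Stk11 2 had 9.83 FPKM. Ccne2, its target, was at 5.85, 11.3, 12.2 and 7.55 FPKM, and Skp2 at 12.1, 17.9, 15.9 and 11.7 FPKM, in the same order of libraries. In each of these genes Control 2 and Shh-Stk11 1 were the higher libraries, so that the genotypes overlapped.

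The genes downstream of E2F showed the same order of libraries. Of the replication genes, 36 of 36 did, with a median log2 difference of 0.58 between the Control libraries and 0.31 between the Shh-Stk11 libraries, against a median over the genotypes of -0.10, and so did 28 of 30 mitotic genes. The mitotic genes that did not were Mki67 and Cenpe, which the study named and which were lower in Control 2 than in Control 1. Of the 7 tested members with an E2F spelling in a promoter shown above, 7 followed this order, beside 13 of the 28 other tested members with a promoter entry. Among those 13 were E2f1, Ccne1 and Skp2. The order was chosen after the values were seen, and the members share the same libraries. The counts are therefore a description, and the part of E2F in the pattern was not tested. The members with the reverse order were Cdkn1b, Cdkn2b, Rbl2, E2f2, Myc, Ccng1, Ccng2, Btg1 and Btg2. The summed FPKM of heart muscle markers, at 78.8, 143, 90.9 and 43.4 in Control 1, Control 2, Shh-Stk11 1 and Shh-Stk11 2, was likewise higher in Control 2 and Shh-Stk11 1 than in the other library of its genotype. The summed FPKM of endothelial markers, at 769, 661, 530 and 566 in that order of libraries, and of immune markers, at 333, 297, 203 and 390, ran the opposite way. Most of the immune sum was Lyz2 (304, 268, 174 and 352 FPKM). Of the 6 immune markers, 3 ran the opposite way and 1 ran with the pattern. The lung epithelial sum, mostly Sftpc, was 18191, 16587, 8896 and 13014 and also ran the opposite way. The sums of mesenchymal and of red blood markers had neither order. The part of these tissues in the pattern was not tested.

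**Figure D5:**
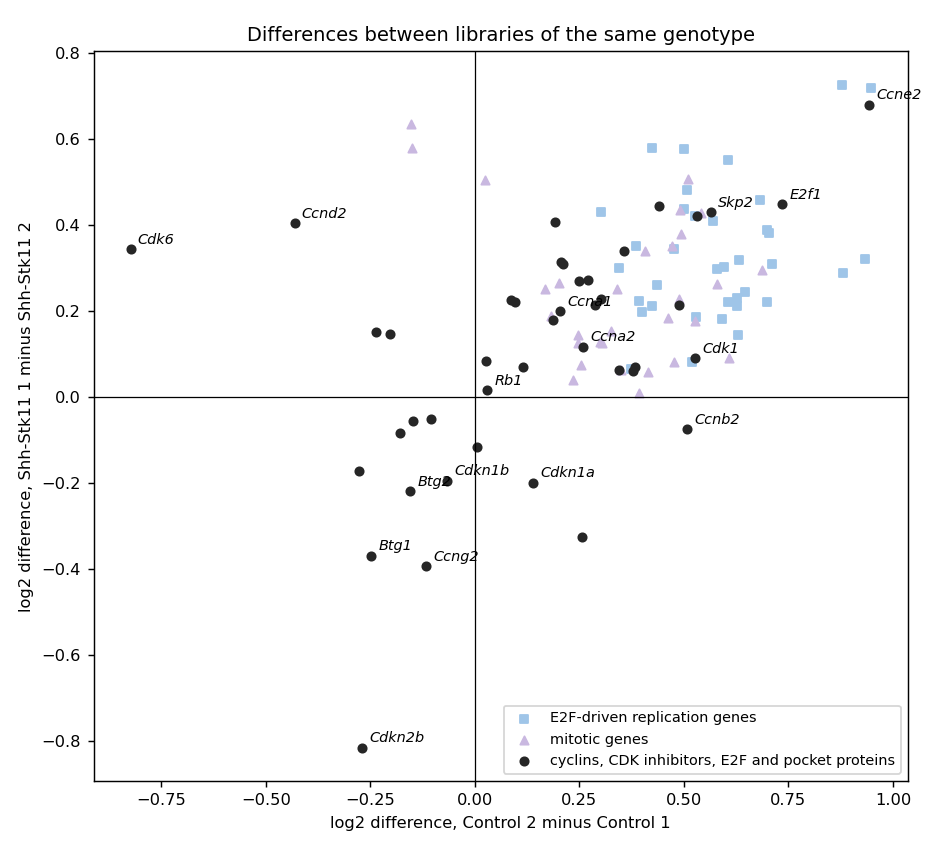
Log2 difference between the Control libraries (2 minus 1, horizontal) and between the Shh-Stk11 libraries (1 minus 2, vertical) for the 43 tested genes (black circles), 36 replication genes driven by E2F (squares) and 30 mitotic genes (triangles). All squares and 26 of the black circles lie in the upper right, and Cdkn2b, Btg1, Btg2, Ccng2 and Cdkn1b are among the 9 in the lower left.

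The fold changes of the list went with transcript length. Over the 43 genes, Pearson's r between the log2 fold change and log2 length was 0.49 (Spearman's rho 0.51), and with GC content it was -0.42 (rho -0.54). Over 13633 tested genes with a length the values were 0.25 (rho 0.37) and -0.22 (rho -0.36). These are descriptions across genes, which share the 4 libraries and are not independent replicates. With the trend removed, the median log2 fold change of the 43 genes was 0.00. Removing the trend also centres each library, and median-ratio scaling alone gave a median of 0.0087.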

How the data were processed

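Whole-lung RNA of 4 mouse embryo libraries at E16.5 was sequenced with single-end reads. The submitters' processing notes name TopHat2 2.0.13 and Cufflinks 2.2.1 and the builds GRCm38 and mm9, without saying which build served for what, so no positions are given for expression values. The authors deposited 1 table of FPKM values, 1 column per library. Any further scaling was not given in the sources used here.

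Members and lists were chosen with earlier results of these data known. The text names each member, gives values per library for those with an unadjusted p under 0.05, those without overlap and with a log2 fold change of at least 0.5, those below the filter and 9 chosen regulators, and of each other pathway list names those past the threshold or else the 2 with the smallest p. Cell type markers are given as counts and medians or sums. Values per library of E2f1, Ccne2, Skp2, Ccna2 and Myc, and other genes named, were chosen after their values were seen.

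Genes whose mean reached 0.5 FPKM were fitted on log2(FPKM + 0.1) with limma 3.58.1 in R 4.3.3 (lmFit, eBayes with trend, genotype as the only term), two-sided, with Benjamini-Hochberg adjustment over all 13770 genes tested. Fold changes on this scale understate the change of low genes. The labels do not say whether the libraries came from separate litters, so p-values measure the spread between these libraries. Between any pair of libraries, at most 0.015% of genes above 0.5 FPKM held the same value. Of 1806 low genes, 63%, 63.3% and 61.7% lay in ratios of whole reads to Control 1, with a step 1.21, 1.23 and 1.15 times as large in Control 2, Shh-Stk11 1 and Shh-Stk11 2, from which depths of 30.8 M to 38.0 M reads were estimated; the counts were not recovered for nearly all genes, so no count test was run. Of the symbols, 20242 were those of GENCODE M21, 1916 could be joined to it by RefSeq synonyms and 398 could not be joined. Length and GC content are those of that annotation. The fit was tested on simulated data for this comparison of 2 against 2 libraries and 13770 genes, where it called 57% of 100 genes changed by 1 and 95% of 100 genes changed by 2 on the log2 scale, beside 8 false calls. Alternatives were other pseudocounts, filters, scalings and variance settings, a replicate block, removal of the trend with length and GC content, and each library left out.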

Additional observations from a re-analysis of the deposited data

How the results depend on the processing

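In 16 alternatives, Ccna1 kept its direction and lost its call in 4, at a log2 fold change of -1.96 with the replicate block, -1.81 with the block and the trend of length and GC content removed, and -2.06 and -1.86 without a Control library. The count of members called lower was then 0 (0 to 1 over the libraries left out), and no other member passed in any of these 16. Over all genes, the calls higher and lower were 20 and 41 without a filter, 303 and 284 with robust eBayes, 87 and 104 with the trend of length and GC content removed, 6 and 7 with the replicate block, 6 and 5 with both, and 15 to 64 and 23 to 127 with a library left out; a filter of 5 FPKM gave 90 lower. The other pathway lists, with 6 calls in the fit reported, the cell type markers not counted, gave 1 call without a filter, 0 with the block, 0 with the block and the trend removed, and 0 to 3 with a library left out. The median log2 fold change of the members ran from -0.20 (without Control 1) to 0.068. The cause of these shifts was not tested, beyond the fewer libraries or genes that some alternatives hold.

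Stk11 lost its call at a log2 fold change of -0.67 (pseudocount 1), -0.69 (filter of 0.1 FPKM, no filter, eBayes without trend, replicate block), -0.62 (quantile normalization), -0.65 (median-ratio scaling), -0.55 (trend removed, with or without the block) and -0.78 to -0.60 with a library left out.

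The labels do not say that replicate numbers mark a litter, and the deviations of same-numbered libraries correlated at -0.114, so the numbers were not taken as pairs. A block with the crossed pairing, chosen after seeing the data, called 360 genes higher and 315 lower, 2 members lower and 11 genes of the other pathway lists.

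A change of sign occurred in 27 members, none of them with an absolute log2 fold change above 0.24 in the fit reported. With quantile normalization it came to 0.076 for Ccna2, 0.040 for Cdkn1b, -0.026 for E2f3, 0.043 for Tfdp1, 0.041 for Cdkn3 and 0.035 for Ccng2. With median-ratio scaling it came to 0.012 for Ccna2, 0.011 for Cdkn1b, 0.0087 for Tfdp1, 0.028 for Cdkn3, 0.037 for Cdc25a, 0.041 for Myc and 0.010 for Ccng2. With the trend of length and GC content removed, with or without the block, it came to 0.035 for Ccne1, -0.064 for Ccne2, 0.037 for Ccna2, 0.028 for Cdk2, -0.049 for Cdk6, 0.082 for Cdkn2c, -0.015 for E2f3, 0.016 for E2f6, 0.053 for Tfdp1, 0.060 for Cdkn3, 0.017 for Cdc25a, 0.062 for Cdc25b and 0.15 for Myc. With a library left out it ran from -0.38 to 0.15 for Ccne1, -0.24 to 0.70 for Ccne2, -0.16 to 0.10 for Ccna2, -0.27 to 0.11 for Ccnb1, -0.42 to 0.090 for Ccnb2, -0.45 to 0.075 for Cdk1, -0.17 to 0.022 for Cdk2, -0.35 to 0.027 for Cdk4, -0.17 to 0.65 for Cdk6, -0.13 to 0.067 for Cdkn1b, -0.61 to 0.13 for E2f1, -0.070 to 0.21 for E2f2, -0.22 to 0.22 for E2f3, -0.24 to 0.044 for E2f6, -0.086 to 0.27 for E2f8, -0.20 to 0.14 for Tfdp1, -0.26 to 0.23 for Cdkn3, -0.16 to 0.15 for Cdc25a, -0.20 to 0.039 for Cdc25b, -0.26 to 0.042 for Cdc25c, -0.31 to 0.0039 for Wee1, -0.39 to 0.17 for Skp2, -0.052 to 0.052 for Myc, -0.086 to 0.13 for Trp53, -0.23 to 0.17 for Ccng2 and -0.037 to 0.33 for Btg1.

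The count of members high in Control 2 and Shh-Stk11 1 was 26 to 27 under 3 scalings added after seeing the data. With Cdkn1c added to the inhibitors, also after seeing the data, the difference in their ratio to the D-type cyclins went from -0.096 to -0.0035. Without Cdkn1c and with a library left out, the difference ran from -0.20, when Shh-Stk11 2 was dropped, to 0.0080, when Shh-Stk11 1 was. With 2 libraries per genotype no exact test could reach 0.05.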
